A study of Mus musculus with 24 samples.

Results

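The genes described here are 10 subunit genes of the RNA exosome: *Exosc1*, *Exosc2*, *Exosc3*, *Exosc4*, *Exosc5*, *Exosc7*, *Exosc8*, *Exosc9*, *Exosc10* and *Dis3*. They were chosen by name and not by a threshold on their values, but with earlier results of these data known, and are 10 of 55471 annotated mouse genes. Their RNA was followed from the oocyte to the embryo in SLIM-seq, a low-input immunoprecipitation of RNA with an antibody against N6-methyladenosine (m6A), and in L2C embryos after knockdown of *Ythdc1*, which encodes a nuclear reader of m6A.

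The RNA exosome is a barrel of proteins that degrades and trims RNA from its 3′ end. A ring of subunits related to the bacterial enzyme RNase PH is closed by a cap of subunits with S1 and KH domains, and neither the ring nor the cap cuts RNA in mammals. RNA is threaded through the channel to the nuclease DIS3 or trimmed by the nuclease EXOSC10 on top of the cap, while cofactors such as the TRAMP, NEXT and PAXT complexes in the nucleus and the SKI complex in the cytoplasm deliver the substrates. In oocytes and early embryos, the loss of maternal RNA and the onset of transcription in the embryo make RNA decay a central step.

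Wild-type B6D2F1 mice (C57BL/6 J x DBA/2N) gave all samples. MII oocytes came from superovulated females of 8 weeks at 14 to 16 h after hCG, with cumulus cells taken off by hyaluronidase. Embryos at the late stages of 1 cell (L1C) and of 2 cells (L2C) came from matings of such females with B6D2F1 males and were collected at 27 to 29 h and 48 to 50 h after hCG. Each of these stages gave 3 input libraries, made without the antibody, and 3 IP libraries. In the knockdown experiment, 3 KD libraries came from L2C embryos injected as zygotes with Cas13d mRNA and 3 crRNAs against *Ythdc1*, and 3 Ctrl libraries from L2C embryos injected with Cas13d mRNA alone, so Ctrl embryos received no crRNA of any kind. CPM are shares of the RNA counted in a library, in which fewer cells that carry an RNA and less RNA per cell cannot be told apart. They are not amounts per oocyte or embryo. RNA was primed with oligo-dT, so a change of RNA amount and a change of poly(A) tail cannot be told apart either.

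Total estimated counts were 11107421 to 39739950 in the 18 SLIM-seq libraries. The KD and Ctrl libraries held 8696476 to 14500548 counts in the 5 files that cover the whole annotation. The merged knockdown table stops at gene 25739 of the annotation, so 6 exosome genes were tested in its 6 libraries and the other 4 in the 5 complete ones. CPM of genes in this table are shares of its 3276715 to 5463868 counts, and CPM of genes beyond it are shares of complete libraries. These scales are not alike. *Exosc9* was at 225 and 221 CPM in KD replicates 1 and 2 on the first, and at 86.9 and 85.0 CPM on the second. The 9 oocyte transcripts checked were detected in all stages, with a summed level of 8036 to 9251 CPM (counts scaled to a common library total) in MII inputs and 812 to 849 CPM in L2C inputs. For the 6 2-cell transcripts the sums were 29.2 to 35.3 CPM and 352 to 481 CPM. The 8 cumulus cell markers summed to 37.2 to 45.1 CPM in MII inputs, with 1 of the 8 at 0, and to 2.38 to 3.62 CPM in L2C inputs, with 2 at 0. Single genes carried some sums in MII inputs: *Cyp19a1* gave 31.8 to 39.03 CPM of the cumulus sum, and *Tcstv1*, which did not rise to L2C, gave 22.9 to 27.9 CPM of the 2-cell sum. *Ythdc1* was at 523, 541 and 519 CPM in KD libraries and at 1080, 1098 and 994 CPM in Ctrl libraries, a log2 change of -1.0 (SE 0.06, adjusted p = 1.3e-10, edgeR).

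The crRNAs against *Ythdc1* are shown because they are what KD embryos received and Ctrl embryos did not. All are antisense to the mRNA, and their matches lie on chromosome 5 of GRCm38, crRNA 1 in exon 4 (86817026 to 86817048), crRNA 2 in exon 2 (86815667 to 86815689), and crRNA 3 across the junction of exons 3 and 4.
crRNA 1: cctcattctcagtgttgttgccc
crRNA 2: aattcatcatcctgttctggtac
crRNA 3: ctctcagaaccatctggtgtagg

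RefSeq promoter windows, 250 bases before to 50 after the transcription start on GRCm38.p6, were found for 8 of the 10 genes, in 9 windows, since *Exosc10* has 2. 3 are printed because their genes differ most in the inputs: *Exosc5* and *Dis3* rose most from L1C to L2C, and *Exosc8* fell at both steps. Capitals mark matches on either strand to CCAAT (read as ATTGG on the other strand), to the GC box GGGCGG, read as CCGCCC on the other strand, to the ETS-type motif CCGGAAG, and to the NRF1-type palindrome, none of which overlap in these windows.
Exosc5 (chr7:25658903-25659202, plus strand): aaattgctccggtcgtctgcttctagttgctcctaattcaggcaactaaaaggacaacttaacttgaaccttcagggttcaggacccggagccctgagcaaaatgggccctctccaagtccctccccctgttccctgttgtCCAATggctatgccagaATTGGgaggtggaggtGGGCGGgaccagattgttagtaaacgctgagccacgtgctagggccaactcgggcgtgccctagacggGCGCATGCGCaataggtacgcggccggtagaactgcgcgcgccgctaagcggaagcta
Dis3 (chr14:99099721-99100020, minus strand): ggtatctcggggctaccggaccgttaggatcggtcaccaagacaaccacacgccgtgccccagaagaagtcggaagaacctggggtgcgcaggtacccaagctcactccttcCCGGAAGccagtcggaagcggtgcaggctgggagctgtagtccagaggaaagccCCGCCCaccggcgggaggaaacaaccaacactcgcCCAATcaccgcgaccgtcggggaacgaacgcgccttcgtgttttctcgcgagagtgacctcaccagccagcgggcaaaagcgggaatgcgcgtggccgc
Exosc8 (chr3:54735315-54735614, minus strand): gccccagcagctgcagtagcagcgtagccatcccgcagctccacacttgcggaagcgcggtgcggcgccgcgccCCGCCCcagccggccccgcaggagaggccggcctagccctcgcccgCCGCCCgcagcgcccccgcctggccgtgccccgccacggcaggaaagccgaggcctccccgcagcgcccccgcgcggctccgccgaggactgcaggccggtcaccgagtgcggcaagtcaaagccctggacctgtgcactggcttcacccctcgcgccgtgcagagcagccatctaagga

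A GC box was present in 7 of the 9 windows and in 35.658% of all 32851 promoters, CCAAT in 4 of 9 and 37.408%, the ETS-type motif in 3 of 9 and 8.858%, and the TATA box TATAAA in 0 of 9 and 13.616%. The NRF1-type palindrome was present in *Exosc5* alone among the 9 and in 0.971% of all promoters. Of the 2 windows of *Exosc10*, 1 holds the GC box and the other the ETS-type motif. The windows of *Exosc5* and *Dis3* both hold CCAAT and a GC box, while that of *Exosc8* holds GC boxes alone and has 75.7% G and C, against 57.3% in *Exosc5*, 64.0% in *Dis3* and a median of 52.7% over all promoters. *Exosc1*, which ended lower at L2C than at MII, also holds CCAAT and GC boxes, and *Exosc2*, which ended higher, holds CCAAT and no GC box. A match in letters is a description of the window and not a site of binding.

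The first question was how exosome RNA changed from the oocyte to L2C, in the 9 input libraries. From MII to L1C, 7 of the 10 RNAs fell, *Dis3* alone rose, and *Exosc2* and *Exosc9* did not pass the test (edgeR quasi-likelihood test, Benjamini-Hochberg adjusted p under 0.05 over all genes tested). Among 15239 mRNAs tested, 27.6% were lower and 31.4% higher at this step. From L1C to L2C, 6 rose (*Dis3*, *Exosc1*, *Exosc2*, *Exosc3*, *Exosc4* and *Exosc5*), *Exosc8* and *Exosc9* fell, and *Exosc7* and *Exosc10* did not pass, where 44.2% of mRNAs were higher and 39.4% lower. The median log2 change of the 10 genes was -0.70 at the first step and 0.86 at the second, against 0.09 and 0.15 over all mRNAs tested. The 6 risers spread from a log2 change of 0.48 to 4.64, so the subunits of 1 complex did not move by like amounts.

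**Figure D1:**
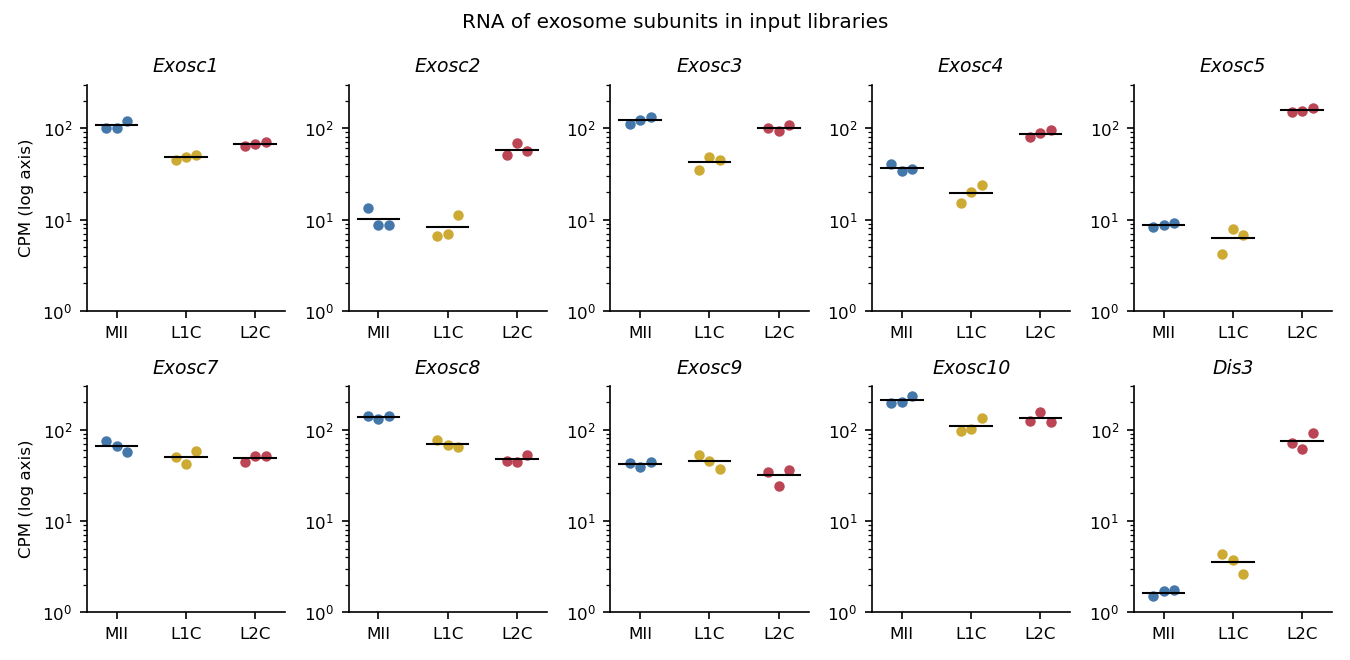
CPM of each exosome gene (log axis) in the 3 input libraries of MII oocytes, L1C and L2C embryos. Points are libraries and bars are means. *Dis3* and *Exosc5* stand apart, below 10 CPM in every MII and L1C library and above 60 CPM in every L2C library, while *Exosc8* steps down at each stage.

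Of the cap genes, *Exosc1* (chromosome 19, 41922292 to 41933423, GRCm38) encodes a subunit with an S1 domain. Its level was 101, 101 and 120.2 CPM in MII inputs, 44.8, 48.1 and 51.2 CPM at L1C, and 63.0, 66.8 and 71.0 CPM at L2C. The 3 stages did not overlap, with L1C lowest. It changed in log2 by -1.16 (SE 0.12, adjusted p = 2.7e-06, edgeR) from MII to L1C and 0.48 (SE 0.12, adjusted p = 2.1e-03) from L1C to L2C. *Exosc3* (chromosome 4, 45316613 to 45342732), whose product is a cap subunit with S1 and KH domains, followed the same course more steeply. It was at 109.8, 124 and 132 CPM in MII inputs, 34.9, 48.3 and 44.9 CPM at L1C and 100, 92.9 and 108 CPM at L2C. L1C libraries were again the lowest, and every L2C library lay below every MII library. The log2 change was -1.51 (SE 0.14, adjusted p = 8.2e-07) and then 1.23 (SE 0.14, adjusted p = 1.2e-06), and the difference of -0.28 (SE 0.14) between L2C and MII was not called (adjusted p = 0.073). That difference was called without MII input replicate 1 (log2 change -0.36) or L1C input replicate 1 (-0.30), without a filter (-0.34), and in a fit of these stages alone (-0.34).

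*Exosc2* (chromosome 2, 31670715 to 31681349) encodes the remaining cap subunit, which also carries S1 and KH domains. It was at 13.4, 8.64 and 8.73 CPM in MII inputs, 6.56, 6.92 and 11.2 CPM at L1C and 51.1, 67.9 and 55.7 CPM at L2C. MII and L1C libraries overlapped, and all L2C libraries lay far above both. The log2 change was -0.33 (SE 0.23) from MII to L1C, not called (adjusted p = 0.24) but called without L1C input replicate 3, at -0.62. From L1C to L2C it was 2.83 (SE 0.23, adjusted p = 3.9e-08). The span of *Exosc2* shares 4986 bases with the antisense gene *Gm13427*, which held a mean of 191 counts in L2C inputs against 1713 for *Exosc2*.

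Of the ring genes, *Exosc5* (chromosome 7, 25659164 to 25671368) changed most. Its level was 8.27, 8.79 and 9.24 CPM in MII inputs, 4.23, 7.80 and 6.74 CPM at L1C, and 148, 153 and 167 CPM at L2C. Every L2C library lay more than an order of magnitude above every earlier one. The log2 change from L1C to L2C was 4.64 (SE 0.20, adjusted p = 3.6e-11), a 25.0-fold rise, and the change before it was -0.49 (SE 0.19, adjusted p = 0.039). The earlier fall was not called when L1C input replicate 1 (log2 change -0.26), MII input replicate 1, 2 or 3 (-0.53, -0.50 and -0.46), or L2C input replicate 1 or 3 (both -0.49) was left out, with library size scaling (-0.44) or in a fit of MII and L1C alone (-0.47). *Exosc5* shares 2230 bases with *Tmem91* on the opposite strand, whose log2 change from L1C to L2C was 3.78 (SE 0.24, adjusted p = 2.1e-09) at a mean of 1169 counts in L2C inputs against 4731 for *Exosc5*, and the part of shared reads was not tested.

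*Exosc4* (chromosome 15, 76327397 to 76330677) encodes a ring subunit on the path of the RNA. It was at 40.4, 33.9 and 36.0 CPM in MII inputs, 15.1, 20.2 and 23.8 CPM at L1C and 79.7, 87.7 and 94.2 CPM at L2C. No stage overlapped another, L1C being lowest and L2C highest. Its log2 change was -0.90 (SE 0.16, adjusted p = 3.3e-04) and then 2.15 (SE 0.17, adjusted p = 1.8e-08). Its span shares 619 bases with *Oplah* on the opposite strand, which held a mean of 189 counts in L2C inputs against 2642.

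*Exosc8* (chromosome 3, 54728678 to 54735393), another ring gene, fell at both steps. It was at 142, 131 and 142 CPM in MII inputs, 77.7, 67.3 and 65.1 CPM at L1C and 45.2, 44.0 and 53.1 CPM at L2C. The stages did not overlap, and each stood below the stage before it. Its log2 changes were -0.98 (SE 0.12, adjusted p = 1.4e-05), then -0.56 (SE 0.12, adjusted p = 7.1e-04), and -1.54 (SE 0.12, adjusted p = 2.7e-08) over both. *Supt20*, whose 3′ end shares 89 bases with the 3′ end of *Exosc8* on the other strand, went the other way, by 1.80 (SE 0.12, adjusted p = 2.2e-08) and 1.48 (SE 0.11, adjusted p = 1.6e-08).

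*Exosc9* (chromosome 3, 36552606 to 36565727) and *Exosc7* (chromosome 9, 123113215 to 123136129), both of the ring, changed by smaller amounts. *Exosc9* was at 43.5, 39.003 and 44.0 CPM in MII inputs, 53.3, 45.2 and 37.5 CPM at L1C and 34.6, 24.4 and 35.9 CPM at L2C. MII and L1C overlapped and L2C lay below both, with a log2 change of 0.10 (SE 0.17, adjusted p = 0.62) and then -0.52 (SE 0.17, adjusted p = 0.011). The fall was not called by DESeq2 (-0.38). *Exosc9* shares 863 bases with *Ccna2* on the opposite strand, which held a mean of 20433 counts in L2C inputs against 984 for *Exosc9* and rose by 1.12 (SE 0.14) in log2 from L1C to L2C. *Exosc7* was at 74.8, 66.5 and 57.4 CPM, then 49.7, 42.0 and 58.7 CPM, then 44.6, 52.0 and 51.2 CPM. L1C overlapped both other stages, and MII lay above L2C. The log2 change of *Exosc7* was -0.40 (SE 0.15, adjusted p = 0.033) and then -0.02 (SE 0.15, adjusted p = 0.88). The first was not called without L1C input replicate 1 or 2 (-0.39 and -0.30) or without MII input replicate 1 or 2 (-0.31 and -0.41).

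The nuclease genes differed widely in oocytes. *Exosc10* (chromosome 4, 148558429 to 148582401) encodes a nuclease of the RNase D type found mainly in the nucleus. Its level was 193, 202 and 232 CPM in MII inputs, 95.5, 102 and 135 CPM at L1C and 124, 157 and 121 CPM at L2C. Every MII library lay above all others, and L1C and L2C overlapped. The log2 change was -0.92 (SE 0.15, adjusted p = 1.8e-04) and then 0.27 (SE 0.15, adjusted p = 0.11). The second was called without L1C input replicate 3 (0.43), by DESeq2 (0.42) and with library size scaling (0.37). *Dis3* (chromosome 14, 99075206 to 99099770), which encodes the nuclease at the exit of the channel, was at 1.51, 1.70 and 1.75 CPM in MII inputs, 4.31, 3.76 and 2.64 CPM at L1C and 71.2, 61.7 and 90.9 CPM at L2C. It stepped up at each stage without overlap, from 31, 34 and 35 counts in the MII libraries, where few counts limit the precision. The log2 change was 1.13 (SE 0.24, adjusted p = 1.1e-03) and then 4.37 (SE 0.21, adjusted p = 1.3e-10), the latter a 20.7-fold rise.

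**Figure D2:**
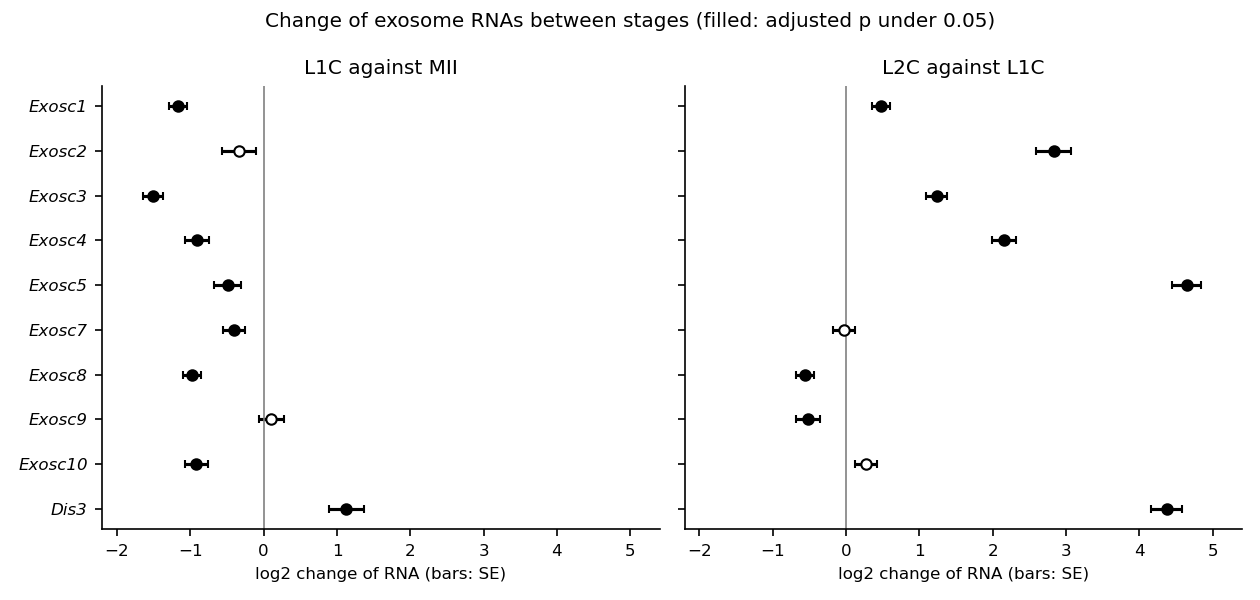
Log2 change of each exosome RNA from MII to L1C (left) and from L1C to L2C (right), in 3 input libraries per stage. Points are edgeR estimates, bars are SE, and filled points are at an adjusted p under 0.05. The left panel holds *Dis3* as the 1 filled point above 0, and in the right panel *Exosc5* (4.64), *Dis3* (4.37), *Exosc2* (2.83) and *Exosc4* (2.15) lie beyond the others.

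Over the whole interval from MII to L2C, *Dis3* (log2 change 5.50), *Exosc5* (4.15), *Exosc2* (2.50) and *Exosc4* (1.25) ended higher, and *Exosc8* (-1.54), *Exosc1* (-0.68), *Exosc10* (-0.64), *Exosc7* (-0.43) and *Exosc9* (-0.41) ended lower. Thus 4 rose and 5 fell, where 46.7% of mRNAs were higher and 38.4% lower. *Exosc7* was not called lower without MII input replicate 1 (-0.35) or L2C input replicate 1 (-0.37), and *Exosc9* was not without MII input replicate 1 (-0.41) or 3 (-0.41) or L2C input replicate 2 (-0.27). Library size scaling did not call *Exosc7* (-0.28) or *Exosc9* (-0.27), and DESeq2 did not call *Exosc9* (-0.33). The cap and the ring each held genes of both directions.

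Levels of different genes were set side by side as CPM per kilobase of exon. At MII the order was *Exosc3* (91.9), *Exosc10* (58.2), *Exosc8* (31.9), *Exosc1* (26.6), *Exosc4* (18.9), *Exosc7* (11.0), *Exosc9* (8.96), *Exosc2* (3.55), *Exosc5* (1.40) and *Dis3* (0.213), and no neighbours overlapped over 3 libraries. At L1C *Exosc3* (32.3) and *Exosc10* (30.9) overlapped, as did each neighbouring pair among *Exosc1* (11.9), *Exosc4* (10.1), *Exosc9* (9.63) and *Exosc7* (8.34). The L2C order began with *Exosc3* (75.8), *Exosc4* (44.8) and *Exosc10* (37.3), of which the last pair overlapped, followed by *Exosc5* (24.9), *Exosc2* (20.2), *Exosc1* (16.5) and *Exosc8* (11.0), and ended with *Dis3* (9.62), *Exosc7* (8.20) and *Exosc9* (6.71), which overlapped as neighbours, *Exosc8* and *Dis3* included. The distance between the highest and the lowest of the 10 thus shrank from 432-fold at MII to 70.0-fold at L1C and 11.3-fold at L2C. These counts were made on gene spans with introns, so a gene with reads in introns is placed too high on this scale. On the deposited TPM, scaled by gene span, the order differed: *Exosc8* was highest at MII and L1C and *Exosc4* at L2C, and *Exosc3* ranked 5, 7 and 7 of 10 at the 3 stages, while *Dis3* was lowest at MII and L1C on both scales and at L2C *Exosc7* was lowest on TPM.

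Other genes of the pathway were counted from fixed lists. Their counts stand beside the shares of all mRNAs tested. From MII to L1C 31.4% of mRNAs were higher and 27.6% lower, from L1C to L2C 44.2% and 39.4%, and from MII to L2C 46.7% and 38.4%. *Exosc6*, the ring subunit outside the 10 genes, had 0 counts in every MII and L1C input and 8.82, 7.85 and 12.5 CPM at L2C, at least 65.0-fold higher than the floor of 3 counts per MII library and at least 68.1-fold higher than that of the L1C libraries. Of 13 genes of nuclear cofactors, 3 rose and 4 fell from MII to L1C, led by *Tent4b* (log2 change 1.77, SE 0.29), a poly(A) polymerase of TRAMP, and by *Zc3h18* (-1.65, SE 0.18), an adaptor of NEXT. From L1C to L2C 9 of the 13 rose and 4 fell. *Pabpn1*, the nuclear poly(A) binding protein of PAXT, rose most (7.50, SE 0.20, adjusted p = 8.9e-13), and *Rbm7* of NEXT fell most (-2.77, SE 0.16, adjusted p = 8.6e-10). Of 5 genes of cytoplasmic cofactors 0 rose and 3 fell at the first step, with *Pelo*, a ribosome rescue factor, at -1.20 (SE 0.24), and 1 rose and 3 fell at the second. There *Skiv2l*, the helicase of SKI, was at 0.44 (SE 0.16) and *Ttc37*, its scaffold, at -1.67 (SE 0.15). The cytoplasmic nuclease genes *Dis3l* and *Dis3l2* changed by 0.33 (SE 0.13) and -0.89 (SE 0.20) and then by 1.72 (SE 0.13) and 0.82 (SE 0.20), all called at an adjusted p under 0.05 in edgeR. From MII to L2C 6 of 13 nuclear genes rose and 4 fell, with *Pabpn1* at 7.36 and *Zcchc8* of NEXT at -3.86 (SE 0.15), 0 of 5 cytoplasmic genes rose and 4 fell, with *Pelo* at -2.85 (SE 0.26), and *Dis3l* rose by 2.05 (SE 0.13).

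The second question was whether exosome RNAs were enriched by the m6A antibody. An RNA was m6A-tagged at a stage when log2 IP/input was above 0 at an unadjusted P under 0.05 with over 1 count in every input of that stage. These thresholds follow the study, but the P is from edgeR where the study used DESeq2, and its further clauses on missing P and on replicates were not applied. CPM here are scaled over all 18 libraries. By this rule *Exosc1* and *Exosc8* were tagged at all 3 stages, *Exosc9* at MII and L1C, *Dis3* at MII and *Exosc3* at L1C, and *Exosc2*, *Exosc4*, *Exosc5*, *Exosc7* and *Exosc10* at none. That is 4 of 10 at MII, 4 at L1C and 2 at L2C, where 20.6%, 19.3% and 23.7% of 16118 mRNAs tested were tagged. All of these tags also had an adjusted p under 0.05. With DESeq2 P the counts were 6, 4 and 2. At an adjusted p under 0.05 *Exosc10* was lower in IP than in input at every stage, and at L2C *Exosc4* and *Exosc5* were too. So 1, 1 and 3 were lower, where 25.6%, 22.5% and 26.6% of mRNAs were at the same threshold. At an unadjusted P under 0.05 *Exosc4* was lower at MII as well.

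*Dis3* had the highest enrichment of the 10 genes at MII. It was at 8.74, 8.93 and 9.92 CPM in MII IP libraries and at 1.85, 2.04 and 2.08 CPM in MII inputs. All IP libraries lay above all inputs, and log2 IP/input was 2.21 (SE 0.20, adjusted p = 5.7e-08, edgeR). At L1C the IP libraries had 4.45, 4.75 and 5.69 CPM and the inputs 4.94, 4.27 and 2.97 CPM. At L2C they had 79.5, 85.4 and 71.3 CPM against 69.0, 58.5 and 88.1 CPM. IP and input overlapped at both of these stages, with log2 IP/input of 0.29 (SE 0.19, adjusted p = 0.26) and 0.13 (SE 0.16, adjusted p = 0.54). The enrichment itself was lower at L1C than at MII by a log2 difference of -1.92 (SE 0.28, adjusted p = 1.7e-04) and lower at L2C than at MII by -2.08 (SE 0.26, adjusted p = 1.5e-05). The low MII inputs, of 31 to 35 counts, move with this result, and their part in it was not tested. The overlapping neighbour *Pibf1*, which shares 347 bases with *Dis3*, had a log2 IP/input of 0.09 (SE 0.18) at MII.

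*Exosc1* was at 241, 241 and 209 CPM in MII IP libraries against 124, 122 and 143 CPM in inputs, at 94.4, 79.9 and 80.1 CPM against 51.3, 54.7 and 57.5 CPM at L1C, and at 87.4, 98.2 and 86.6 CPM against 61.0, 63.3 and 68.8 CPM at L2C. IP lay above input at each stage without overlap, at a log2 IP/input of 0.83 (SE 0.11, adjusted p = 5.2e-06), 0.64 (SE 0.11, adjusted p = 1.5e-04) and 0.49 (SE 0.11, adjusted p = 1.2e-03). *Exosc8* was at 236, 233 and 222 CPM in MII IP libraries against 174, 157 and 169 CPM in inputs, at 126, 116 and 115 CPM against 89.0, 76.5 and 73.2 CPM at L1C, and at 71.2, 65.7 and 68.7 CPM against 43.8, 41.7 and 51.4 CPM at L2C. There too IP and input did not overlap, with a log2 IP/input of 0.47 (SE 0.10, adjusted p = 1.3e-03), 0.58 (SE 0.11, adjusted p = 2.6e-04) and 0.59 (SE 0.11, adjusted p = 1.9e-04). These were the RNAs tagged throughout, while their input levels fell by a log2 of 1.16 and 0.98 from MII to L1C. RNAs not tagged at MII also fell at this step, *Exosc3*, *Exosc10* and *Exosc4* by a log2 change of -1.51, -0.92 and -0.90, and *Exosc5* and *Exosc7* by less. *Exosc9* and *Dis3*, tagged at MII, changed by 0.10 (not called) and 1.13.

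*Exosc9* had 80.7, 70.0 and 89.8 CPM in MII IP libraries against 53.3, 46.8 and 52.4 CPM in inputs, and 76.0, 77.1 and 64.5 CPM against 61.0, 51.3 and 42.2 CPM at L1C. IP libraries were above all inputs at both stages, at a log2 IP/input of 0.66 (SE 0.16, adjusted p = 2.6e-03) and 0.49 (SE 0.16, adjusted p = 0.021), and overlapped with them at L2C (0.23, SE 0.16, adjusted p = 0.25). At L1C the adjusted p was no longer under 0.05 without IP replicate 1 or 2 (log2 IP/input 0.41 and 0.44) or without input replicate 2 or 3 (0.49 and 0.36). *Exosc3* had 60.2, 64.9 and 92.0 CPM in L1C IP libraries against 40.0, 54.9 and 50.4 CPM in inputs, without overlap, at a log2 IP/input of 0.58 (SE 0.15, adjusted p = 4.8e-03). It was not called at MII (0.06, SE 0.15) or at L2C (0.14, SE 0.15).

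*Exosc10* went the other way. Its IP libraries had 136, 139 and 126 CPM against 236, 242 and 277 CPM in inputs at MII, 65.9, 59.0 and 52.8 CPM against 109, 116 and 152 CPM at L1C, and 71.0, 80.8 and 71.8 CPM against 120.1, 149 and 117 CPM at L2C. Every IP library lay below every input of its stage. The log2 IP/input was -0.91 (SE 0.13, adjusted p = 2.0e-05), -1.09 (SE 0.14, adjusted p = 4.5e-06) and -0.79 (SE 0.13, adjusted p = 1.1e-04). At L2C *Exosc4* had 60.5, 38.1 and 45.9 CPM in IP against 77.2, 83.1 and 91.2 CPM in inputs, and *Exosc5* 107.8, 73.8 and 95.7 CPM against 144, 145 and 162 CPM. Neither overlapped, at a log2 IP/input of -0.80 (SE 0.19, adjusted p = 2.4e-03) and -0.70 (SE 0.21, adjusted p = 0.011), the latter not called without L2C IP replicate 2 (-0.56) or with library size scaling (-0.44). The neighbours *Oplah* and *Tmem91* were at -1.24 (SE 0.30) and -0.96 (SE 0.22) at L2C, and the part of shared reads was not tested.

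At the earlier stages *Exosc4* was at -0.45 (SE 0.19, adjusted p = 0.072) and -0.35 (SE 0.20, adjusted p = 0.19), the first called without MII IP replicate 2 (-0.59), and *Exosc5* at 0.03 (SE 0.23) and -0.17 (SE 0.23). *Exosc2* was at 0.40 (SE 0.22), 0.13 (SE 0.22) and -0.09 (SE 0.21) from MII to L2C, and *Exosc7* at 0.26, 0.17 and 0.21 (SE 0.15 each), with IP and input overlapping at every stage for both. None of these values was called, but without MII input replicate 1 *Exosc2* was higher in IP at MII (0.66). *Exosc4* was also called lower in IP at MII without a filter (-0.45) and in a fit of MII libraries alone (-0.41). Library size scaling, which moves the median log2 IP/input of all mRNAs from 0 to 0.16 at MII and to 0.29 at L1C, and from -0.01 to 0.24 at L2C, called *Exosc7* higher at all 3 stages (0.50, 0.47 and 0.46), *Exosc2* at MII (0.63), *Dis3* at L1C (0.59) and L2C (0.39), and *Exosc3* (0.40) and *Exosc9* (0.49) at L2C.

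**Figure D3:**
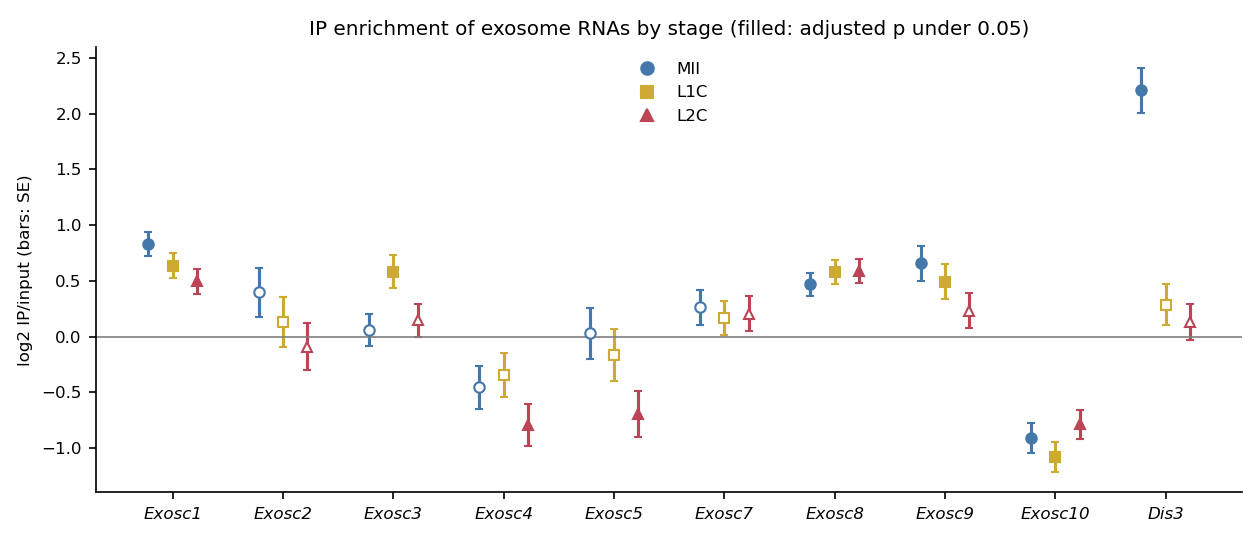
Log2 IP/input of each exosome RNA at MII (circles), L1C (squares) and L2C (triangles), 3 IP and 3 input libraries per stage. Points are edgeR estimates with bars of SE, filled at an adjusted p under 0.05. *Dis3* at MII (2.21) lies above all other points, and *Exosc10* lies between -1.09 and -0.79 at every stage.

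Apart from *Dis3*, no exosome RNA was called for a change of enrichment between stages at an adjusted p under 0.05. The differences of *Exosc2*, *Exosc4*, *Exosc7*, *Exosc8*, *Exosc9* and *Exosc10* ran from -0.49 (*Exosc2*, L2C against MII) to 0.30 (*Exosc10*, L2C against L1C) in log2. For L1C against MII 1 of 10 was lower and 0 higher, where 5.04% and 3.82% of mRNAs were, and for L2C against MII 1 was lower and 0 higher, where 11% and 13.5% were. Between L1C and L2C the edgeR test called 0 in either direction, where 5.42% of mRNAs were lower and 6.09% higher, DESeq2 also called 0, and 1 gene, *Exosc3* (log2 difference -0.44, SE 0.21, adjusted p = 0.21), had an unadjusted P under 0.05. *Exosc3* was 1 gene above 0 at an unadjusted P under 0.05 in L1C against MII (0.52, SE 0.21, adjusted p = 0.15), with 0 by DESeq2 after adjustment. In L2C against MII no gene was higher at an unadjusted P under 0.05, and 0 by DESeq2, while *Exosc1* (-0.34, SE 0.15) and *Exosc5* (-0.73, SE 0.31) were lower at that level. *Exosc5* was also called lower after adjustment by DESeq2 (-0.81), without a filter (-0.77) and in a fit of MII and L2C alone (-0.90), which also called *Exosc1* (-0.50) and *Exosc9* (-0.59).

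The letters GGACT on the sense strand, the form of the m6A consensus counted here, stood in the longest coding transcript of every one of the 10 genes and in 87.59% of 21901 such transcripts (GENCODE M21). Per kilobase *Exosc4* held 2.784, *Exosc10* 1.792 and *Exosc5* 1.786, against a median of 1.008 over all transcripts, and these were the RNAs below input at L2C. *Exosc1* held 0.436 and *Exosc8* 0.769, 1 copy each, and *Dis3* held 0.194, also 1 copy. *Exosc9*, tagged at MII and L1C, held 1.237, *Exosc3*, tagged at L1C, held 0.929, and *Exosc2* and *Exosc7*, tagged at no stage, held 1.186 and 0.95. These values describe 10 genes, with no test.

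Among nuclear cofactors 7 of 13 were tagged at each stage, where 20.6%, 19.3% and 23.7% of mRNAs were at MII, L1C and L2C. At an adjusted p under 0.05, 4, 3 and 5 were lower in IP at these stages, where 25.6%, 22.5% and 26.6% of mRNAs were. *Tent4b* was the highest at MII and L1C (log2 IP/input 3.74, SE 0.24, and 2.24, SE 0.20), and *C1d*, a partner of EXOSC10, at L2C (1.77, SE 0.24). The inputs of *Tent4b* were low, at 1.48, 0.78 and 0.87 CPM at MII and 4.46, 2.43 and 3.33 CPM at L1C. Their part in its enrichment was not tested. The lowest log2 IP/input was that of *Zc3h3* of PAXT at MII (-2.23, SE 0.17) and of *Zc3h18* at L1C and L2C (-1.54 and -1.72, SE 0.16 each). In enrichment 1 nuclear cofactor rose and 2 fell from MII to L1C, where 3.82% of mRNAs rose and 5.04% fell. From MII to L2C 2 rose and 3 fell, where 13.5% and 11% of mRNAs did. The enrichment of *Tent4b* fell, by a log2 difference of -1.50 (SE 0.31) from MII to L1C and of -2.62 (SE 0.30) from MII to L2C, and that of *Zc3h3* rose by 0.79 (SE 0.24) and 1.002 (SE 0.24). Between L1C and L2C 0 nuclear cofactors rose and 2 fell in enrichment, *Tent4b* most (-1.12, SE 0.27), where 6.09% of mRNAs rose and 5.42% fell. Of the cytoplasmic cofactors none was called in any of these differences. Of the 5 cytoplasmic cofactors *Wdr61* of SKI was the tagged 1 at each stage (0.67, 0.68 and 0.62), and of 2 lower in IP at each stage *Skiv2l* was lowest (-1.48, -1.43 and -2.16, SE 0.20 each). *Dis3l* was tagged at MII (0.39, SE 0.11) and lower in IP at L1C (-0.60, SE 0.11) and L2C (-1.01, SE 0.11), and *Dis3l2* was tagged at L2C (0.58, SE 0.20). The enrichment of *Dis3l* was lower at L1C and L2C than at MII (-0.98 and -1.396), and that of *Dis3l2* was higher at L2C than at MII (1.07). *Exosc6* had at most 3 counts in MII IP libraries and 19 in L1C IP libraries, with 0 in all inputs of these stages, and at L2C its log2 IP/input of 0.93 (SE 0.46) was not called. With inputs at 0, no difference of its enrichment between stages is given.

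The third question was how exosome RNAs differed between KD and Ctrl embryos. In all, 7 of the 10 rose and 0 fell at an adjusted p under 0.05 (edgeR). In the 6 libraries of the merged table *Exosc9*, *Exosc3* and *Exosc5* rose and *Exosc2*, *Exosc8* and *Exosc10* did not pass, where 35.6% of 5661 mRNAs were higher and 36.5% lower. In the 5 complete libraries *Exosc4*, *Exosc7*, *Exosc1* and *Dis3* all rose, where 33% of 12897 mRNAs were higher and 35.1% lower. For the count of 0 lower genes, 0 had an unadjusted P under 0.05 in either set of libraries and DESeq2 called 0, while library size scaling called *Exosc2* (-0.23) and *Exosc10* (-0.24) lower. At the thresholds of the study, an unadjusted P under 0.05 and an absolute log2 change above 1, here with edgeR where the study used DESeq2, *Exosc3*, *Exosc9*, *Exosc4* and *Exosc7* passed, 2 of 6 and 2 of 4, where 33.5% and 34.9% of mRNAs passed. The median log2 change was 0.26 and 0.91 in the 2 sets of exosome genes and -0.02 and -0.03 over all mRNAs.

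Stage markers moved with the groups. The 4 2-cell transcripts in the table summed to 405 to 472 CPM in KD and to 1776 to 1902 CPM in Ctrl libraries, and the 4 oocyte transcripts to 836 to 899 CPM and 1368 to 1423 CPM. Of the latter *Bmp15* and *Nlrp5* were lower in KD (log2 change -1.13 and -0.79), *Zp3* was higher (0.48) and *Mos* was not called (-0.16). In the complete libraries the remaining oocyte transcripts *Zp1* (-4.23), *Oosp1* (-1.34), *Gdf9* (-1.26), *Npm2* (-0.68) and *Zp2* (-0.46) were called lower in KD. The remaining 2-cell transcripts *Tcstv1* (-1.52) and *Tcstv3* (-1.04) were called lower there too. The 2 cumulus cell markers in the table overlapped between the groups, at 20.3 to 24.4 CPM and 16.1 to 24.3 CPM, with 1 at 0. Their part in the changes of exosome RNAs was not tested.

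Of the cap genes, *Exosc3* was at 424, 478 and 448 CPM in KD libraries and at 188, 205 and 232 CPM in Ctrl libraries. All KD libraries were far above all Ctrl libraries, by a log2 change of 1.12 (SE 0.08, adjusted p = 1.1e-09). *Exosc1* was at 182 and 180.0 CPM in the 2 complete KD libraries and at 117, 111 and 118 CPM in Ctrl, without overlap (log2 change 0.65, SE 0.08, adjusted p = 5.3e-06). *Exosc2* was at 103, 96.3 and 103 CPM against 103, 115 and 109 CPM, which overlapped (-0.11, SE 0.09, adjusted p = 0.30). The gene *Dcaf10*, which shares 632 bases with *Exosc3*, rose by 0.29 (SE 0.09, adjusted p = 9.4e-03).

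In the ring, *Exosc4* had the largest change of the 10 genes. It was at 41.9 and 50.6 CPM in KD libraries and at 8.13, 7.58 and 13.7 CPM in Ctrl libraries, a log2 change of 2.27 (SE 0.19, adjusted p = 5.5e-08) or 4.83-fold, with no overlap. *Exosc9* was at 225, 221 and 218 CPM against 72.2, 76.9 and 60.2 CPM. The groups were apart by a log2 change of 1.65 (SE 0.09, adjusted p = 4.6e-11), while *Ccna2*, whose span overlaps that of *Exosc9*, rose by 0.30 (SE 0.06, adjusted p = 3.3e-04). *Exosc7* was at 149.6 and 159.8 CPM in KD and 70.5, 66.4 and 67.9 CPM in Ctrl libraries, again apart (1.18, SE 0.09, adjusted p = 2.0e-08).

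*Exosc5* was at 75.3, 92.1 and 76.7 CPM in KD and 55.0, 54.6 and 75.9 CPM in Ctrl libraries. Ctrl replicate 3 reached into the range of KD, and the log2 change of 0.41 (SE 0.13, adjusted p = 9.3e-03) was not called without Ctrl replicate 2 (0.33) or with library size scaling (0.28). *Tmem91* rose by 0.87 (SE 0.21, adjusted p = 1.2e-03) at the same place. *Exosc8* was at 493, 459 and 501 CPM against 456, 437 and 449.6 CPM. The groups lay just apart, and the log2 change of 0.12 (SE 0.06) was not called (adjusted p = 0.12), while its neighbour *Supt20* rose by 0.72 (SE 0.07, adjusted p = 5.8e-08).

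Of the nuclease genes, *Exosc10* was at 216, 222 and 217 CPM in KD and 234, 221 and 253 CPM in Ctrl libraries, which overlapped (log2 change -0.11, SE 0.08, adjusted p = 0.20). *Dis3* was at 223 and 193 CPM against 171, 168 and 145 CPM. KD lay above Ctrl without overlap, at a log2 change of 0.37 (SE 0.09, adjusted p = 2.7e-03) that was not called without KD replicate 1 (0.27), when 1 KD library was left and was assumed to vary like the Ctrl libraries. The neighbour *Pibf1* rose by 0.73 (SE 0.10, adjusted p = 7.2e-06).

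**Figure D4:**
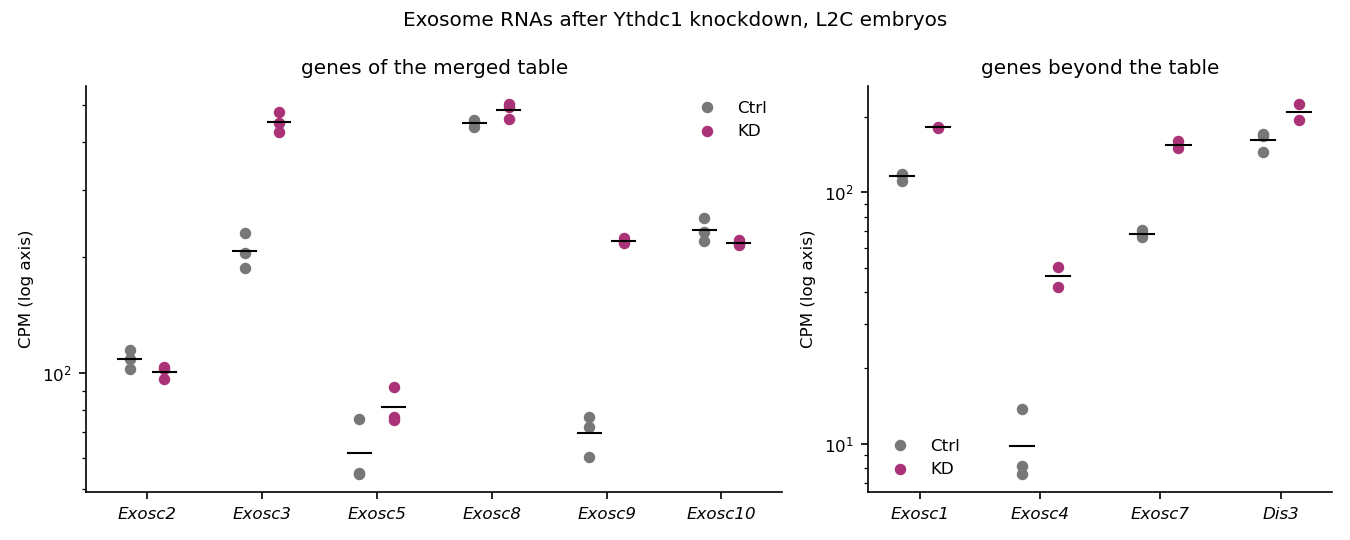
CPM (log axis) of exosome RNAs in Ctrl (grey) and KD (purple) L2C embryos. Points are libraries and bars are means. On the left, for 6 genes of the merged table, there are 3 libraries per group and CPM refer to the counts in the table. On the right, for 4 genes beyond it, there are 2 KD and 3 Ctrl libraries. *Exosc9*, *Exosc3*, *Exosc4*, *Exosc7* and *Exosc1* separate the groups widely, and *Exosc2* and *Exosc10* overlap.

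Of the cofactors in KD, 6 of 13 nuclear genes rose and 4 fell, 2 and 0 of 2 in the merged table and 4 and 4 of 11 beyond it, beside the shares of all mRNAs given above. In the merged table *Zcchc7* of TRAMP rose (0.41, SE 0.10, adjusted p = 1.7e-03). Beyond it *Zfc3h1* of PAXT rose most (1.03, SE 0.09, adjusted p = 1.2e-07), and *Mphosph6*, a partner of the nuclear exosome, fell most (-1.54, SE 0.07, adjusted p = 2.3e-10). Of the 5 cytoplasmic genes 4 were tested, of which *Wdr61* rose (1.97, SE 0.16, adjusted p = 5.7e-08) and *Hbs1l*, the partner of *Pelo*, fell most (-1.96, SE 0.16, adjusted p = 5.4e-08) of 2 that fell. *Dis3l2* was at 0.956, 0.835 and 1.16 CPM in KD and 9.58, 6.18 and 12.2 CPM in Ctrl libraries (-3.16, SE 0.43, adjusted p = 2.5e-06). *Dis3l* was not called (-0.21, SE 0.10). *Exosc6* had 0 counts in the 5 complete libraries, which allows up to 0.345 CPM, and was not tested.

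The Ctrl libraries also give a second measure of exosome RNA at L2C. Per kilobase of exon *Exosc3* was highest, at 60.4 CPM, followed by *Exosc8* (39.6), *Exosc1* (28.5), *Exosc10* (25.2), *Dis3* (20.8), *Exosc2* (14.5), *Exosc7* (11.4), *Exosc9* (5.69), *Exosc4* (5.05) and *Exosc5* (3.79). L2C inputs stood above Ctrl by 8.88-fold for *Exosc4* and 6.57-fold for *Exosc5*, and Ctrl stood above L2C inputs by 3.62-fold for *Exosc8* and 2.16-fold for *Dis3*. The other 6 lay within 1.73-fold. *Exosc6* was at 7.32 CPM per kilobase in L2C inputs and had 0 counts in Ctrl. The sets are separate experiments. They differ in injection and in the tool and unit of counting, gene spans in the inputs and exons in Ctrl. These differences cannot be told apart, and no test was made between the sets.

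**Figure D5:**
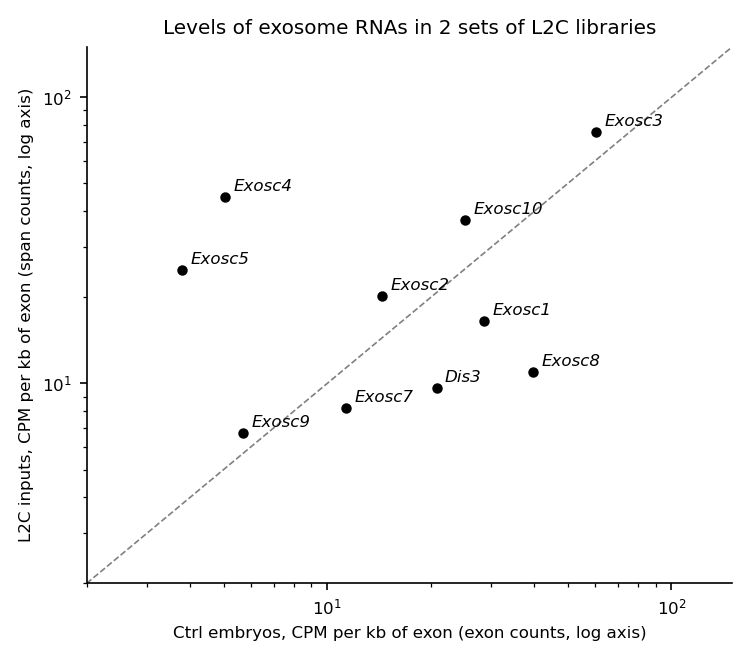
Mean CPM per kilobase of exon of each exosome gene in 3 L2C input libraries (vertical, counts on gene spans) against 3 Ctrl libraries of L2C embryos (horizontal, counts on exons), both on log axes, with a dashed line of equal level. *Exosc4* and *Exosc5* lie farthest above the line (8.88-fold and 6.57-fold), and *Exosc8* (3.62-fold) and *Dis3* (2.16-fold) farthest below.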

How the data were processed

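Low-input RNA-seq and m6A immunoprecipitation (18 SLIM-seq libraries) and 6 knockdown libraries of mouse oocytes and embryos were used, grouped by their labels with 3 libraries per group. Inputs came from the same batches of RNA as the IP libraries. RNA was primed with oligo-dT. For SLIM-seq the authors ran kallisto and deposited estimated counts, not scaled to library size, and TPM per gene, both on whole gene spans with introns, so overlapping genes can share reads. For the knockdown the authors deposited raw counts on exons from featureCounts 2.0.1 after Trimmomatic and HISAT2 (GRCm38, Ensembl 99), with no strand setting. The labels name a stranded kit and the methods a protocol without strand, so reads of a gene and of an opposite neighbour cannot be told apart.

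Estimated counts were rounded and all genes fitted with edgeR 4.0.16 (R 4.3.3): TMM scaling, filterByExpr, quasi-likelihood test, Benjamini-Hochberg adjustment over all genes tested. Inputs, all SLIM-seq libraries with stage by IP interactions, and knockdown libraries were fitted apart. The counts of KD replicate 3 break off in the annotation, so 4 genes were tested in 2 KD and 3 Ctrl libraries. Backgrounds cover protein-coding genes of GENCODE M21. The merged tables were checked against the single files. Labels do not say whether replicates are separate collections, so p-values measure the spread between libraries, which may be technical. Replicates differed by more than counting error in every group, with a lowest chi-square per degree of freedom of 2.77. The fits were tested on simulated data. DESeq2 1.42.0, library size scaling, no filter, fits of the compared groups alone, a replicate block, each library left out, the log2 threshold of the study and TPM were the alternatives, and Python 3.11.15, pandas 2.3.3, numpy 2.4.6 and matplotlib 3.10.9 made tables and figures. Genes and lists were chosen with earlier results of these data known. Every exosome gene is named in each comparison. Of the cofactor lists, counts and the called genes with the largest rise and fall are given. *Exosc6* is named in every comparison, and a few further cofactor genes were named after their values were seen.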

Additional observations from a re-analysis of the deposited data

Results flagged for a closer look

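The IP enrichment of *Dis3* differed between stages by a direct test of the difference (edgeR interaction of stage and IP). Log2 IP/input was lower at L1C than at MII by -1.92 (SE 0.28, adjusted p = 1.7e-04) and lower at L2C than at MII by -2.08 (SE 0.26, adjusted p = 1.5e-05). All 3 MII IP libraries lay above all 3 MII inputs, while IP and input overlapped at L1C and L2C. The MII inputs held 31, 34 and 35 counts of *Dis3*, and their part in this difference was not tested. Enrichment also fell from MII to L1C in other genes with MII inputs below those of *Dis3*: *Tent4b* (-1.50), *Zfp352* (-1.89) and *Zscan4c* (-3.16). At input levels as low, *C1d* and *Fshr* were not called.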

How the results depend on the processing

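No result called in either the reported fit or an alternative changed direction, while results called in neither could change sign. With library size scaling such changes of sign were those of *Exosc7* from L1C to L2C, of *Exosc5* IP/input at L1C, of *Exosc2* IP/input at L2C, of the enrichment differences of *Exosc7* and *Exosc8* between L1C and L2C, and of *Exosc8* in KD. Of 100 gene and comparison results of the exosome genes, 96 kept their side of the threshold with DESeq2 and 84 with library size scaling, and 97 kept it without a filter on low counts. With DESeq2, 1 exosome gene was lower from L1C to L2C in place of 2, and the IP enrichment of 2 was lower at L2C than at MII in place of 1. With library size scaling 3 were lower from MII to L2C in place of 5, 6 were m6A-tagged at L2C in place of 2, and 2 were lower in KD in place of 0. This scaling also moved the median log2 change of all mRNAs in KD from -0.02 to -0.14. Without a filter 2 were lower in IP at MII in place of 1, and the IP enrichment of 2 was lower at L2C than at MII. Fits of the compared groups alone gave 2 and 4 for these counts. At an unadjusted P under 0.05 and a log2 change above 1, 2 of the 4 genes beyond the merged table rose in KD. On the deposited TPM per gene span, the highest level was 316-fold over the lowest at MII and 13.4-fold at L2C, in place of 432 and 11.3. With each library left out in turn, 5 to 8 genes fell from MII to L1C, 6 to 7 rose from L1C to L2C, 4 to 6 fell from MII to L2C, 4 to 6 were tagged at MII and 4 to 5 at L1C, 1 to 2 were lower in IP at MII and 2 to 3 at L2C, and 2 to 3 and 3 to 4 rose in KD in the merged table and beyond it. The replicate block changed 0 of the 100 calls. Correlations of libraries with the same number ran from -0.38 to 0.37, and no source ties the numbers to the batches that IP and input libraries shared, so the numbers were not taken as pairs. The cause of the changed calls was not tested. Few counts limit *Dis3* and *Exosc5* before L2C.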
